A study of Rattus norvegicus with 24 samples.

Results

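The genes described here are 52 rat genes whose forebrain signal lay lower after 5 and 20 mg/kg D-serine than after vehicle. They were picked on those arrays. After quantile normalization, which gives every array the same distribution of values, intensities were taken as log2(intensity + 16) and each gene was read on its probe set with the highest mean. A gene was taken where all 8 arrays at 5 and 20 mg/kg lay below all 4 vehicle arrays and the mean difference was -0.5 or less, which 63 of 14217 genes met (0.443%). Of these 63, 11 were set aside by name, among them collagen, kinesin and chaperone genes. No test is therefore given for the genes at 5 or 20 mg/kg against vehicle, and those values are a description of how the genes were chosen.

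The arrays came from male F344 rats, an inbred strain, aged 11 to 12 weeks. Each rat was given D-serine once at 5, 20, 50, 200 or 500 mg/kg, or vehicle (0 mg/kg), and a small piece of forebrain was taken 96 h later for total RNA. Each of the 6 groups held 4 rats, with 1 Affymetrix array per rat and 24 arrays in all. Which forebrain region each piece came from is not given. In such bulk tissue fewer cells of a type and less RNA per cell cannot be told apart.

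D-serine is a co-agonist of the NMDA type of glutamate receptor, where it occupies the site that glycine can also use, and in forebrain it is made by serine racemase. The chosen genes belong to no single pathway. The best known pair among them is Enpp2 and Lpar1. Enpp2 encodes autotaxin, the secreted enzyme that makes the signalling lipid lysophosphatidic acid, and Lpar1 encodes a receptor for that lipid, which in brain is found on oligodendrocytes among other cells. Pik3c2b encodes a class II phosphoinositide kinase, Cit encodes citron kinase, known for its part in cell division, and Pnma8b belongs to the paraneoplastic Ma antigen family, which derives from retrotransposons.

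The promoters of 42 of the 52 genes were found in the RefSeq table of the GRCr8 assembly, and 4 are printed as examples. The genes are Pnma8b (chr1:86750197-86750496, plus strand), Cit (chr12:46424607-46424906, minus strand), Plekhh1 (chr6:103572054-103572353, plus strand) and Fbxl20 (chr10:83639072-83639371, minus strand). Each sequence runs 5' to 3' on the gene's own strand, with the annotated start of transcription 50 bases from its 3' end. Capitals mark exact matches on either strand to any of 6 motifs. These are GGGCGG (the GC box), CCAAT (read by nuclear factor Y), TATAAA (of the core promoter), TGACGTCA (the cyclic AMP response element), CACGTG (an E-box) and the motif of nuclear respiratory factor 1. The matches in the 4 windows do not overlap, and a match is a run of letters, not a shown binding site.
Pnma8b: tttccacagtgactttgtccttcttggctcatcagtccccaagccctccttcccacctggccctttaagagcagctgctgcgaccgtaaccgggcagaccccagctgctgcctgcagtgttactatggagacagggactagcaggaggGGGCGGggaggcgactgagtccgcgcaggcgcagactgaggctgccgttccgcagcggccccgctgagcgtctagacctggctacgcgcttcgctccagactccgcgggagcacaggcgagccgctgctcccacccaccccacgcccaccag
Cit: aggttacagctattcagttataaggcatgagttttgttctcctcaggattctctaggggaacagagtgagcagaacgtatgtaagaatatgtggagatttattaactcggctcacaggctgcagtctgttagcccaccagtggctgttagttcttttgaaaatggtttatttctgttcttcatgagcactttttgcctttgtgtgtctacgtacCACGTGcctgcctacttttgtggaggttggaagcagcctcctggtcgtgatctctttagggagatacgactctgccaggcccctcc
Plekhh1: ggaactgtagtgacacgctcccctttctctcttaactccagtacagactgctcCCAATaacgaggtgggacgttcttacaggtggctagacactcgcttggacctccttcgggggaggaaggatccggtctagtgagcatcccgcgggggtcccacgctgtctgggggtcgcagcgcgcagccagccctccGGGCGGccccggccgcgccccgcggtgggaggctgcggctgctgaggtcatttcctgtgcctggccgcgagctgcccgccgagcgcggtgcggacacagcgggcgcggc
Fbxl20: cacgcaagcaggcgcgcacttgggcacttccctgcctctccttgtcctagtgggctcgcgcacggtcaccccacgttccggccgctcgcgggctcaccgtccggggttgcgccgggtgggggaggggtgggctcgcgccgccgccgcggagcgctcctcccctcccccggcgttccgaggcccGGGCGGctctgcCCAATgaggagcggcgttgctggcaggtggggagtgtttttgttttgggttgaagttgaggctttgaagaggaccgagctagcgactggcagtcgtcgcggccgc
The Cit window was AT-rich beside the others, with 46.3% G and C, the lowest of the 42, and a single CACGTG, the letters of an E-box. The Plekhh1 and Fbxl20 windows each held a GC box and a CCAAT box, at 68.3% and 70.7% G and C. The Pnma8b window, at 66.0% G and C, held a GC box alone. Over the 42 matched genes the median G and C content was 64.7%, against 60% over 11734 genes on the array with a promoter in the table. GGGCGG stood in 28 of the 42 windows (66.7%, against 57.5% of all 11734) and CCAAT in 13 (31.0% against 37.3%). CACGTG stood in 5 (11.9% against 8.9%), and TATAAA, TGACGTCA and the nuclear respiratory factor 1 motif in 1 each (2.4%, against 8.5%, 2.9% and 1.6%). No motif was thus common to all of these genes, and the shares were given no test.

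Enpp2 stood furthest below vehicle. It measured 8.80, 8.93, 9.03 and 9.0 on the log2 scale at 5 mg/kg and 8.19, 8.97, 9.02 and 8.91 at 20 mg/kg, against 9.03, 11.65, 9.44 and 9.91 with vehicle. The mean difference was -1.15, a 2.22-fold lower level, but the highest array at the low doses and the lowest vehicle array were only 0.0007 apart. At higher doses Enpp2 measured 9.09, 9.54, 11.44 and 9.26 at 50 mg/kg, 10.49, 9.71, 8.79 and 11.13 at 200 mg/kg, with 9.46, 9.22, 9.07 and 10.92 at 500 mg/kg. Thus 1 or 2 arrays in each of the vehicle, 50, 200 and 500 mg/kg groups were high. The same arrays were high in choroid plexus markers, the tissue in the ventricles that itself makes much autotaxin. The summed intensity of the 5 choroid plexus markers past the filter on dim probe sets (Ttr, Folr1, Prlr, Aqp1 and Sostdc1) was 384.2 to 437.8 at 5 mg/kg and 328.5 to 389.4 at 20 mg/kg, against 376.2, 9506.0, 445.1 and 567.1 with vehicle. It was 9230.5 on 50 mg/kg replicate 3, 6824.3 and 8048.8 on 200 mg/kg replicates 1 and 4 and 6960.5 on 500 mg/kg replicate 4, and at most 463.3 on the other arrays at these doses. Kl, Kcne2 and Otx2 were too dim to count. The part of choroid plexus in the Enpp2 values was not tested.

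Lpar1 measured 9.11, 9.23, 9.28 and 8.97 at 5 mg/kg and 8.58, 9.18, 9.16 and 9.12 at 20 mg/kg, against 9.51, 10.46, 9.54 and 10.23 with vehicle. The mean difference was -0.86 on the log2 scale, or 1.81-fold lower, and a gap of 0.22 separated the groups. At the higher doses it measured 9.35, 9.64, 10.30 and 9.49 at 50 mg/kg, 10.04, 10.03, 8.98 and 9.74 at 200 mg/kg, with 9.99, 9.48, 9.47 and 9.70 at 500 mg/kg. Those values overlapped vehicle in each group, and only 200 mg/kg replicate 3 was as low as the low doses. Plekhh1, which encodes a membrane-binding protein with pleckstrin homology and FERM domains, had high and low arrays in common with Lpar1. It measured 7.86, 8.38, 8.37 and 8.17 at 5 mg/kg and 7.58, 8.25, 8.40 and 8.42 at 20 mg/kg, against 8.43, 9.58, 8.46 and 9.45 with vehicle, a mean difference of -0.80. At the higher doses it measured 8.54, 8.59, 9.15 and 8.32 at 50 mg/kg, 9.22, 9.10, 7.90 and 9.14 at 200 mg/kg, with 8.91, 8.63, 8.51 and 9.13 at 500 mg/kg. Vehicle replicates 2 and 4 were high for both genes, 20 mg/kg replicate 1 was lowest for both, and 200 mg/kg replicate 3 (7.90 for Plekhh1, against 9.10 to 9.22 on the other arrays of its group) was low for both.

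Those arrays also stood apart in oligodendrocyte markers. The summed intensity of 11 such markers past the filter was 15198.8, 18233.2, 18683.9 and 17978.2 at 5 mg/kg and 12554.2, 18437.0, 18215.6 and 18901.0 at 20 mg/kg, against 17530.8, 28394.5, 18428.3 and 26698.9 with vehicle. Vehicle replicates 2 and 4 were thus the high ones and 20 mg/kg replicate 1 the lowest, while 200 mg/kg replicate 3, at 14472.0, was lowest of the higher doses. All 11 markers had means below vehicle at 5 and at 20 mg/kg, with medians of -0.44 and -0.60 on the log2 scale. The list holds none of the 52 genes. The part of oligodendrocyte content in Lpar1, Plekhh1 and Enpp2 was not tested.

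Pik3c2b had another order of arrays. It measured 7.13, 7.22, 7.43 and 7.02 at 5 mg/kg and 6.77, 7.01, 7.30 and 7.61 at 20 mg/kg, against 8.0, 8.19, 7.73 and 8.05 with vehicle. The mean difference was -0.81 on the log2 scale, or 1.75-fold lower, with a gap of 0.12. It measured 8.32, 7.71, 7.71 and 7.41 at 50 mg/kg, 8.01, 7.80, 7.01 and 7.57 at 200 mg/kg, with 7.86, 7.71, 7.42 and 7.71 at 500 mg/kg. Those groups overlapped vehicle and reached higher than any low-dose array except on 50 mg/kg replicate 4, 200 mg/kg replicates 3 and 4 and 500 mg/kg replicate 3. The other lipid genes were Osbp2, an oxysterol-binding protein, at a mean difference of -0.57, and Gltp, a glycolipid transfer protein, at -0.50. Over the 6 lipid genes the median difference from vehicle was -0.78 at 5, -0.82 at 20, -0.22 at 50, -0.22 at 200 and -0.27 at 500 mg/kg.

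Cit measured 8.66, 8.97, 8.76 and 8.45 at 5 mg/kg and 8.36, 8.82, 8.68 and 8.65 at 20 mg/kg, against 9.43, 9.89, 9.07 and 9.26 with vehicle. The mean difference was -0.74 on the log2 scale (1.68-fold lower) with a gap of 0.10. At 50 mg/kg it measured 8.67, 8.83, 9.24 and 8.85, at 200 mg/kg 9.30, 9.37, 9.18 and 8.90, and at 500 mg/kg 9.31, 9.21, 9.12 and 8.72. Most arrays at 50 mg/kg thus lay within the low-dose range and most at 200 and 500 mg/kg above it. The other regulators of kinases and small GTPases were Tbc1d12, of a family that switches off Rab proteins, at -0.66, Arhgap5, a GTPase-activating protein gene, at -0.59, Rap1gds1, a chaperone of small GTPases, at -0.53 and the kinase gene Map4k4 at -0.52. Their median was -0.50 at 5, -0.73 at 20, -0.45 at 50, -0.23 at 200 and -0.27 at 500 mg/kg.

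Pnma8b lay mostly below vehicle at every dose. It measured 8.30, 8.57, 8.42 and 8.46 at 5 mg/kg and 8.65, 7.88, 7.86 and 8.03 at 20 mg/kg, against 9.39, 8.84, 9.09 and 9.11 with vehicle, a mean difference of -0.83 or 1.78-fold lower. At the higher doses it measured 8.91, 8.36, 8.63 and 8.21 at 50 mg/kg, 8.28, 8.74, 8.74 and 8.27 at 200 mg/kg, with 8.08, 8.87, 8.81 and 8.42 at 500 mg/kg. All 4 arrays at 200 mg/kg lay below vehicle, and 1 array at each of 50 and 500 mg/kg overlapped it. Its means at 50, 200 and 500 mg/kg were 8.53 ± 0.31, 8.51 ± 0.27 and 8.54 ± 0.37 (SD, n = 4 each), a spread larger than the differences among them. Genes of protein turnover, translation and Wnt signalling, to which Pnma8b does not belong, were Nkd1, a Wnt antagonist, at -0.56, the F-box genes Fbxo15 at -0.55 and Fbxl20 at -0.53, and Eprs1, a tRNA synthetase gene, at -0.52 (mean of 5 and 20 mg/kg minus vehicle).

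**Figure D1:**
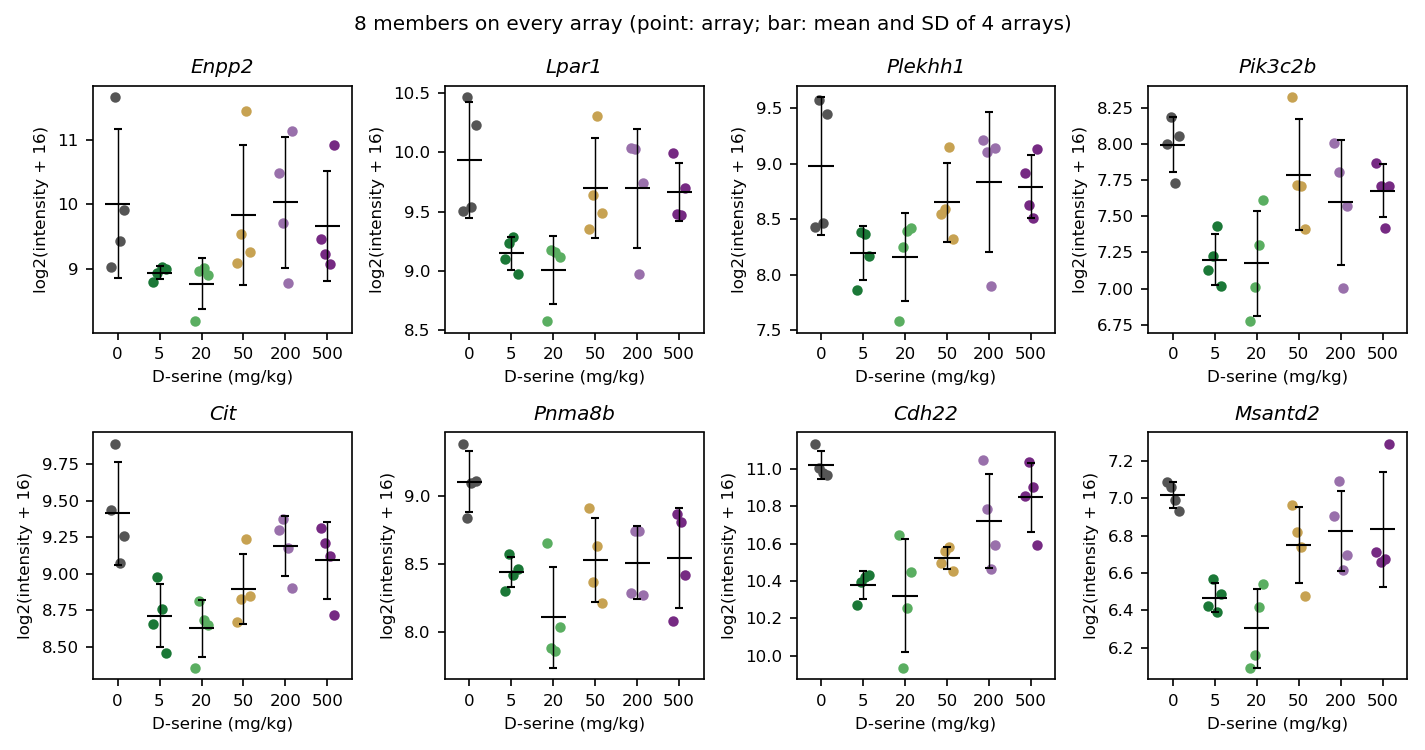
Level of 8 of the genes on every array. Each point is 1 array, the horizontal bar the mean and the vertical bar the SD of 4 arrays; the x axis is the D-serine dose in mg/kg (0 is vehicle) and the y axis log2(intensity + 16). Enpp2 is high on 1 or 2 arrays of each of the vehicle, 50, 200 and 500 mg/kg groups, while Cdh22 is tight at 11.02 ± 0.08 with vehicle and 10.52 ± 0.06 at 50 mg/kg.

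Of 9 cytoskeletal genes, Eml1, which encodes a microtubule-binding protein, measured 8.44, 8.31, 8.42 and 8.30 at 5 mg/kg and 8.10, 8.24, 8.44 and 8.23 at 20 mg/kg, against 8.61, 9.36, 8.64 and 9.37 with vehicle. Vehicle replicates 2 and 4 were again the high ones, and the mean difference was -0.68. Eml1 measured 8.83, 8.57, 8.9967 and 8.43 at 50 mg/kg, 8.88, 8.83, 8.16 and 8.74 at 200 mg/kg, with 8.69, 8.60, 8.60 and 8.83 at 500 mg/kg. Mtcl2, a microtubule crosslinking protein gene, stood at -0.64, the actin-regulating oxidase gene Mical3 at -0.56, the neuron navigator Nav1 and the WASP-interacting Wipf1 at -0.52 each, Map7, which recruits kinesin to microtubules, at -0.51 and Trak2, an adaptor of mitochondrial transport, at -0.50. The cilium genes Ccdc113 and Saxo4 were dim. Among surface and secreted proteins, the cadherin gene Cdh22 measured 10.27, 10.39, 10.42 and 10.43 at 5 mg/kg and 10.65, 9.94, 10.25 and 10.45 at 20 mg/kg, against 11.13, 11.0, 10.98 and 10.97 with vehicle. Its gap of 0.32 between the groups was among the wide ones, where the median over the 52 genes was 0.16 and the widest 0.36. At 200 mg/kg Cdh22 measured 11.05, 10.78, 10.46 and 10.59, which reached into the vehicle range on replicate 1. Slc22a15, of the organic ion transporter family, measured 6.20, 6.39, 6.13 and 6.02 at 5 mg/kg and 5.88, 5.63, 6.43 and 5.99 at 20 mg/kg, against 6.59, 7.34, 6.57 and 6.53 with vehicle, where replicate 2 stood above the rest. It measured 6.46, 6.54, 6.74 and 6.11 at 50 mg/kg, 6.63, 6.67, 6.60 and 6.52 at 200 mg/kg, with 6.85, 6.52, 6.35 and 7.10 at 500 mg/kg, and its mean difference at the low doses was -0.68. Mdga2, which encodes a synaptic adhesion protein that binds neuroligins, had a mean difference of -0.60, Ttyh1 of the tweety family -0.51 and Metrn, a secreted neurotrophic factor gene, -0.50.

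Of 8 genes of the secretory pathway, lysosome and membranes, the lysosomal membrane gene Lamp2 measured 9.45, 9.39, 9.55 and 9.76 at 5 mg/kg and 9.29, 9.37, 9.47 and 9.71 at 20 mg/kg, against 9.9955, 10.35, 9.93 and 10.13 with vehicle, a mean difference of -0.60. Tmed5, a cargo receptor between endoplasmic reticulum and Golgi, stood at -0.61, Tor1aip1 of the inner nuclear membrane at -0.58, the palmitoyltransferase gene Zdhhc20 at -0.56, Efcab14 at -0.52 and P3h3, a collagen-modifying hydroxylase, at -0.51. Of 11 genes for transcription, chromatin and RNA processing, Rbfox3, which encodes the neuronal nuclear antigen NeuN, a splicing factor, measured 9.17, 9.10, 8.97 and 9.08 at 5 mg/kg and 8.81, 9.18, 9.05 and 9.18 at 20 mg/kg, against 10.18, 9.44, 9.45 and 9.81 with vehicle. It had a mean difference of -0.65, and its lack of overlap was required by the choice. The second probe set of Rbfox3, with means of 9.06 at the low doses and 9.16 with vehicle, read -0.10. Msantd2 (-0.63), Gatad2b of the NuRD chromatin complex (-0.62), the Mediator subunit Med1 (-0.60), Thoc2 of the mRNA export complex (-0.56), the histone chaperone subunit Ubn2 (-0.56), the elongation factor cyclin Ccnt2 (-0.53), Ro60, which binds small Y RNAs (-0.53), the minor spliceosome gene Snrnp48 (-0.53) and Cpsf7 of mRNA 3' end formation (-0.50) followed.

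A filter that drops the dimmest 40% of probe sets by mean level was passed by 44 of the 52 genes, and 8 were dim. Those were Ccdc113, Saxo4, Smc1b, Tmem35b, Aqp6, Gpr153, Pdia2 and Suco. Ccdc113 measured 4.32, 4.39, 4.36 and 4.22 at 5 mg/kg and 4.66, 5.05, 4.36 and 4.69 at 20 mg/kg, against 5.24, 5.72, 5.47 and 5.59 with vehicle. Its low-dose values, 4.22 to 5.05, are close to the floor of 4 that the added 16 sets, so its difference of -0.99 has little signal behind it. It measured 4.51, 5.28, 4.53 and 4.55 at 50 mg/kg, 4.29, 4.58, 4.39 and 5.79 at 200 mg/kg, with 5.23, 5.38, 5.16 and 4.33 at 500 mg/kg. Saxo4, also of the axoneme, measured 5.37, 4.86, 5.53 and 4.74 at 5 mg/kg and 5.11, 5.63, 4.28 and 4.96 at 20 mg/kg, against 6.15, 5.86, 5.68 and 5.88 with vehicle, a mean difference of -0.83, and 6.10, 6.03, 4.77 and 5.84 at 50 mg/kg, 5.80, 5.81, 4.81 and 6.02 at 200 mg/kg, with 4.72, 5.70, 5.22 and 6.17 at 500 mg/kg. Smc1b, a cohesin subunit of meiosis, measured 4.93, 4.35, 4.29 and 5.12 at 5 mg/kg and 4.33, 4.29, 4.45 and 4.37 at 20 mg/kg, against 5.36, 5.44, 5.29 and 5.14 with vehicle, a mean difference of -0.79, and 4.69, 4.36, 4.63 and 4.41 at 50 mg/kg, 5.01, 4.99, 5.04 and 5.48 at 200 mg/kg, with 4.22, 5.34, 5.15 and 4.60 at 500 mg/kg. The other 5 dim genes had mean differences of -0.61 (Tmem35b) to -0.51 (Suco). At the edge of the choice, Trak2, Gltp and Metrn were just inside with differences of -0.5035, -0.5002 and -0.5. Snrpd1, Ccar1 and Zfp91 stood just outside at -0.49 each, and Cdc42ep1, at -0.69, was left out because its groups overlapped, with a gap of -0.0008.

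**Figure D2:**
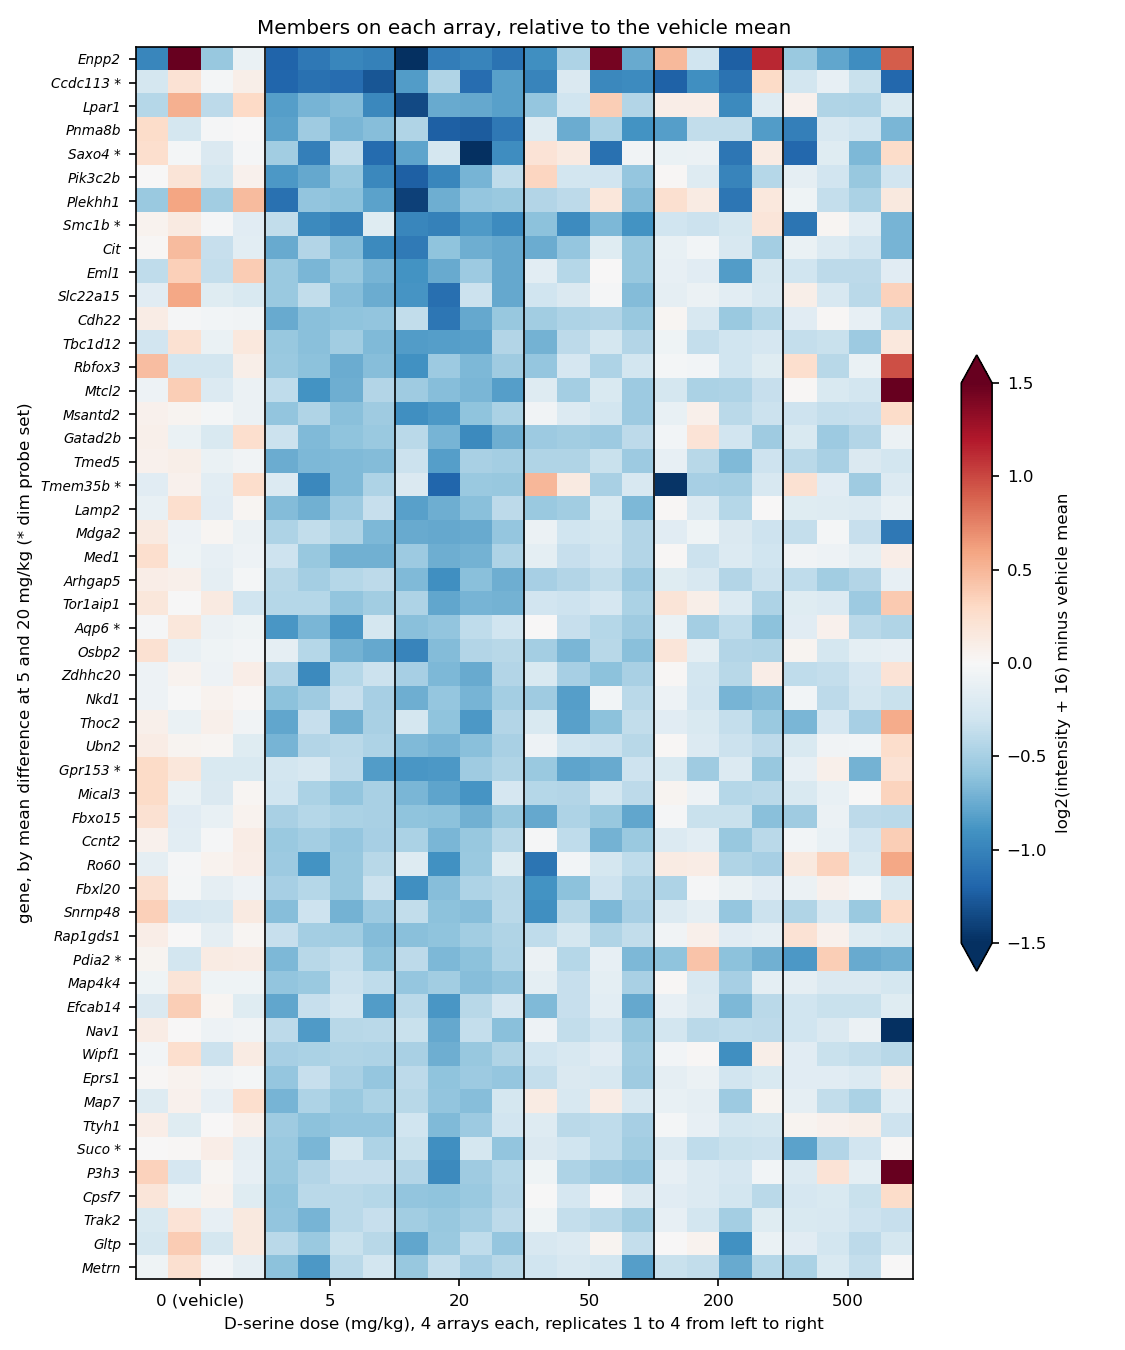
All 52 genes (rows, ordered by their mean difference at 5 and 20 mg/kg) on all 24 arrays (columns, grouped by dose in mg/kg). Colour gives log2(intensity + 16) minus the gene's vehicle mean, blue below and red above, and an asterisk marks the 8 dim genes. The 8 columns at 5 and 20 mg/kg are blue by choice, the 4 columns at 50 mg/kg are paler, and 500 mg/kg replicate 4 is red for Mtcl2 and P3h3 and dark blue for Nav1.

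After quantile normalization the genes lay furthest below vehicle at 20 mg/kg. The median difference from vehicle over the 52 genes was -0.55 at 5, -0.62 at 20, -0.37 at 50, -0.24 at 200 and -0.24 at 500 mg/kg, while the median over all 14217 genes stayed within 0.01 of 0. In the values as deposited the order of doses was different, with medians of -0.35, -0.24, -0.27, -0.25 and -0.31 from 5 to 500 mg/kg, while the median of all genes stood at 0.16, 0.33, 0.08, -0.03 and -0.07. After normalization the mean lay below vehicle for 52, 52, 52, 51 and 48 genes at 5, 20, 50, 200 and 500 mg/kg. Since all 5 doses are set against the same 4 vehicle arrays, on which the genes were chosen to be high, a difference below 0 at 50, 200 and 500 mg/kg is partly built in. For 40 of 52 genes the mean was lower at 20 than at 5 mg/kg. The lowest of the 6 group means was that of 20 mg/kg for 37 genes and that of 5 mg/kg for 11. Both doses were used in the choice, so a lowest mean at either is largely built in. No order of doses is read from these counts. The 50 mg/kg mean lay between vehicle and the mean of the low doses for 48. At 200 and at 500 mg/kg the mean lay above that of the low doses for 51 genes each. The choice took vehicle high and the low doses low, so a place between them is also partly built in. All 4 arrays lay below all 4 vehicle arrays for 23 of 52 genes at 50 mg/kg (2.75% of all genes), for 12 at 200 mg/kg (1.64%) and for 3 at 500 mg/kg (1.31%). The vehicle arrays chose the genes, so nothing is read from these shares.

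The doses of 50, 200 and 500 mg/kg were not used in the choice, and comparing them with each other leaves vehicle out. This asks whether the genes that were low at 5 and 20 mg/kg are also lower at the next dose than at the highest ones. In limma fitted to these 12 arrays and adjusted over 18625 probe sets, 0 of the 44 genes past the filter passed at an adjusted p under 0.05 in any of the 3 comparisons, nor did any other probe set (0.0% called in either direction). At an unadjusted p under 0.05 there were 1016, 2123 and 561 probe sets for 50 against 200, 50 against 500 and 500 against 200 mg/kg. With 4 arrays a group, the median SE of a difference was 0.15.

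At 50 against 500 mg/kg, 34 of the 44 genes were lower in the mean, with a median difference of -0.20, against 0.00 over all probe sets, of which 49.1% were lower. An unadjusted p under 0.05 was reached by 14 of the 44 genes in the lower direction and by 0 in the higher, where 5.4% of all probe sets did so in the lower direction and 6.0% in the higher. Fbxl20, which encodes the F-box protein of a ubiquitin ligase known in mouse to act on a presynaptic protein, had the smallest p. It measured 7.28, 7.56, 7.87 and 7.72 at 50 mg/kg, against 8.10, 8.24, 8.15 and 7.95 at 500 mg/kg. The difference was -0.50 ± 0.14 (SE, n = 4 each, limma adjusted p = 0.266), with no overlap between the groups. Its other 3 probe sets past the filter differed by 0.15, 0.06 and -0.19 at 50 against 500 mg/kg, none of them near -0.50.

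For 7 of the 44 genes all 4 arrays at 50 mg/kg lay below all 4 at 500 mg/kg, where 2.88% of genes past the filter did so, and for 0 did all 4 lie above (2.5%). They were Fbxl20, Osbp2, Mical3, Cdh22, Lamp2, Rap1gds1 and Eprs1. Other probe sets past the filter differed at 50 against 500 mg/kg by -1.04 for Cdh22, -0.15 for Lamp2 and -0.11 for Mical3. Those of Eprs1 differed by 0.03 and 0.43, in the other direction. The second probe sets of Osbp2 and Rap1gds1 were dim. Osbp2 measured 7.57, 7.39, 7.65 and 7.45 at 50 mg/kg, against 8.12, 7.81, 7.92 and 7.96 at 500 mg/kg, a difference of -0.44 ± 0.14 (SE, limma adjusted p = 0.297). Cdh22 measured 10.49, 10.56, 10.58 and 10.45 at 50 mg/kg, against 10.86, 11.04, 10.90 and 10.59 at 500 mg/kg, a difference of -0.33 ± 0.12 (SE, limma adjusted p = 0.368). The groups of Cdh22 nearly touched, and those of Osbp2 lay further apart. Lamp2 measured 9.54, 9.58, 9.87 and 9.43 at 50 mg/kg, against 9.92, 9.91, 9.89 and 9.99 at 500 mg/kg, a difference of -0.32 ± 0.11 (SE, limma adjusted p = 0.352). Rap1gds1 measured 8.81, 8.93, 8.74 and 8.81 at 50 mg/kg, against 9.40, 9.25, 8.99 and 8.96 at 500 mg/kg, a difference of -0.33 ± 0.11 (SE, limma adjusted p = 0.306). None of the 7 passed the adjustment.

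The 2 largest differences at 50 against 500 mg/kg rested on a single array. The array of 500 mg/kg replicate 4 had a median correlation of 0.855 with the others, where every other array had 0.957 to 0.971. Its summed cortical neuron markers were the lowest of all 24 arrays at 1389.3 and its cerebellar markers the highest at 20066.9, against the label of forebrain. P3h3 measured 7.53, 7.12, 7.06 and 7.01 at 50 mg/kg, against 7.38, 7.79, 7.44 and 9.31 at 500 mg/kg, and Mtcl2 7.44, 7.14, 7.41 and 7.10 against 7.66, 7.41, 7.36 and 9.73. Their differences were -0.80 ± 0.33 and -0.77 ± 0.40 (SE). Their means at 500 mg/kg were 7.98 and 8.04 with that array and 7.54 and 7.48 without it. Without it, 8 of 44 genes had no overlap between 50 and 500 mg/kg, with the lower group at 50 mg/kg, where 5.17% of genes past the filter had none, and 0 in the higher direction (4.09%). The median difference of the 44 genes was then -0.12, against -0.20 with that array. An unadjusted p under 0.05 in the lower direction was then reached by 11 in place of 14 genes, and by 1047 of 18625 probe sets. In the higher direction 0 genes reached it, and 2040 probe sets did in both directions together.

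At 50 against 200 mg/kg, again 34 of 44 genes were lower in the mean, with a median difference of -0.15, against 0.00 over all probe sets, of which 50.9% were lower. Without 50 mg/kg replicate 4 that median was -0.05, and without 200 mg/kg replicate 1 it was -0.07. An unadjusted p under 0.05 was reached by 6 genes in the lower direction (2.45% of all probe sets) and by 0 in the higher (3.0%). Lamp2, with 10.13, 9.90, 9.68 and 10.11 at 200 mg/kg, had the smallest p at a difference of -0.35 ± 0.11 (SE, limma adjusted p = 0.853). The others were Fbxl20 at -0.38, Osbp2 at -0.35, Gatad2b at -0.33, Fbxo15 at -0.32 and Rap1gds1 at -0.30. Of the 44, only Rap1gds1 had no overlap between the groups, with 9.14, 9.27, 9.02 and 9.05 at 200 mg/kg, where 2.48% of genes past the filter had none, so that count of 1 in 44 is near the background. In the higher direction the count was 0 (2.03%).

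Of the genes described first, Pik3c2b differed by 0.19 ± 0.22 (SE, n = 4 each) at 50 against 200 mg/kg and by 0.11 ± 0.22 at 50 against 500 mg/kg. Cit differed by -0.29 ± 0.15 and -0.20 ± 0.15, Pnma8b by 0.02 ± 0.20 and -0.01 ± 0.20, and Lpar1 by 0.00 ± 0.25 and 0.04 ± 0.25. Each of these 8 differences was under 2 SE, with limma adjusted p from 0.622 upward. At 500 against 200 mg/kg, 17 of 44 genes were lower, with a median of 0.03, where 51.5% of all probe sets were lower. For 0 of them was there no overlap in the lower direction (0.882% of genes) or in the higher (1.12%), and 0 had an unadjusted p under 0.05 (1.41% of probe sets lower and 1.61% higher).

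**Figure D3:**
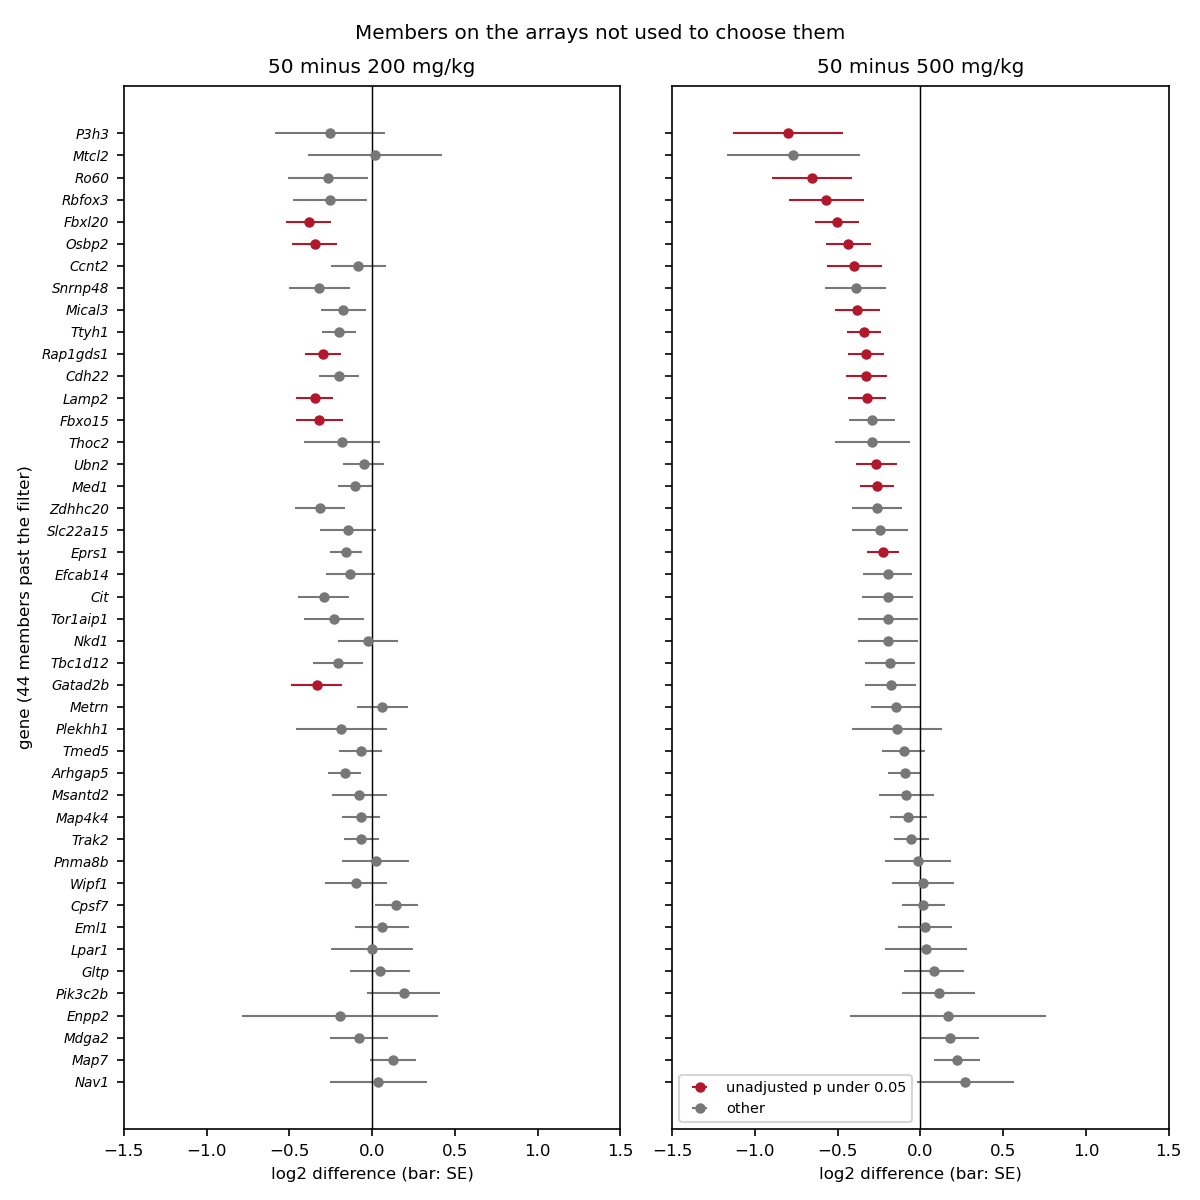
Differences at 50 minus 200 mg/kg (left) and 50 minus 500 mg/kg (right) for the 44 genes past the filter, in log2 units with SE bars, from the 12 arrays not used to choose the genes. Red points have an unadjusted p under 0.05, and 0 genes passed after adjustment; 34 of 44 points lie left of 0 in each panel.

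Control ratios that reflect RNA length differed between the dose groups. Affymetrix arrays carry control probe sets at both ends of housekeeping transcripts, and shorter labelled RNA raises the signal of the 3' end over that of the 5' end. For Gapdh its log2 mean was 0.83 ± 0.06 with vehicle, 0.19 ± 0.07 at 5, 0.18 ± 0.04 at 20, 0.34 ± 0.17 at 50, 0.60 ± 0.21 at 200 and 0.75 ± 0.14 at 500 mg/kg (SD, n = 4 each), in much the same order as the median of the 52 genes. For beta-actin it was 2.56 ± 0.19, 1.69 ± 0.11, 1.60 ± 0.18, 1.87 ± 0.08, 2.46 ± 0.15 and 2.51 ± 0.22 in the same order of groups. A ratio for hexokinase was 2.25 ± 0.53, 1.69 ± 0.38, 1.77 ± 0.13, 2.23 ± 0.11, 2.46 ± 0.45 and 2.38 ± 0.50, so it was low at 5 and 20 mg/kg, but its 50 mg/kg mean was close to vehicle and within the spread of 200 and 500 mg/kg. It was given no test. The beta-actin ratio was lower at 50 than at 200 and at 500 mg/kg (exact two-sided permutation p = 0.0286 each, the smallest that 4 against 4 arrays allow, adjusted p = 0.0571 over 6 comparisons). The Gapdh ratio was lower at 50 than at 500 mg/kg with the same exact permutation p and adjusted p, and at 50 against 200 mg/kg the exact permutation p was 0.143 (adjusted p = 0.214). At 500 against 200 mg/kg the exact permutation p was 0.8 for beta-actin and 0.286 for Gapdh.

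Array by array, the median of the 52 genes minus the vehicle mean was -0.30, -0.38, -0.29 and -0.53 at 50 mg/kg, where the Gapdh ratio was 0.57, 0.34, 0.27 and 0.18. It was -0.11, -0.21, -0.42 and -0.32 at 200 mg/kg, with Gapdh ratios of 0.80, 0.77, 0.42 and 0.41. At 500 mg/kg it was -0.20, -0.22, -0.33 and -0.12, with ratios of 0.72, 0.65, 0.68 and 0.97. At 50 mg/kg the array with the lowest ratio had the lowest median, at 500 mg/kg the array with the highest ratio had the highest median, and at 200 mg/kg both arrays with the higher ratios had the higher medians. The array with the highest ratio at 500 mg/kg was replicate 4, which had the cerebellar signal. Replicate 1 of that dose was next to the highest in both measures, while replicates 2 and 3 stood in the opposite order. The other arrays at 50 mg/kg did not follow the order of the ratios. With the Gapdh ratio as a covariate in the fit of the 12 arrays, the median of the 44 genes became 0.03 at 50 against 200 and 0.06 at 50 against 500 mg/kg, and neither median was then below 0. In that fit 1 of the 44 genes was lower and 2 were higher at an unadjusted p under 0.05 at 50 against 200 mg/kg, and 1 lower and 3 higher at 50 against 500 mg/kg. Of all 18625 probe sets, 1111 had such a p at 50 against 200 mg/kg, 566 of them lower. At 50 against 500 mg/kg 811 had it, 409 of them lower. The counts of genes are small, so no direction is read from them. The ratio differs between the dose groups, so this fit cannot tell the ratio and the dose apart.

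**Figure D4:**
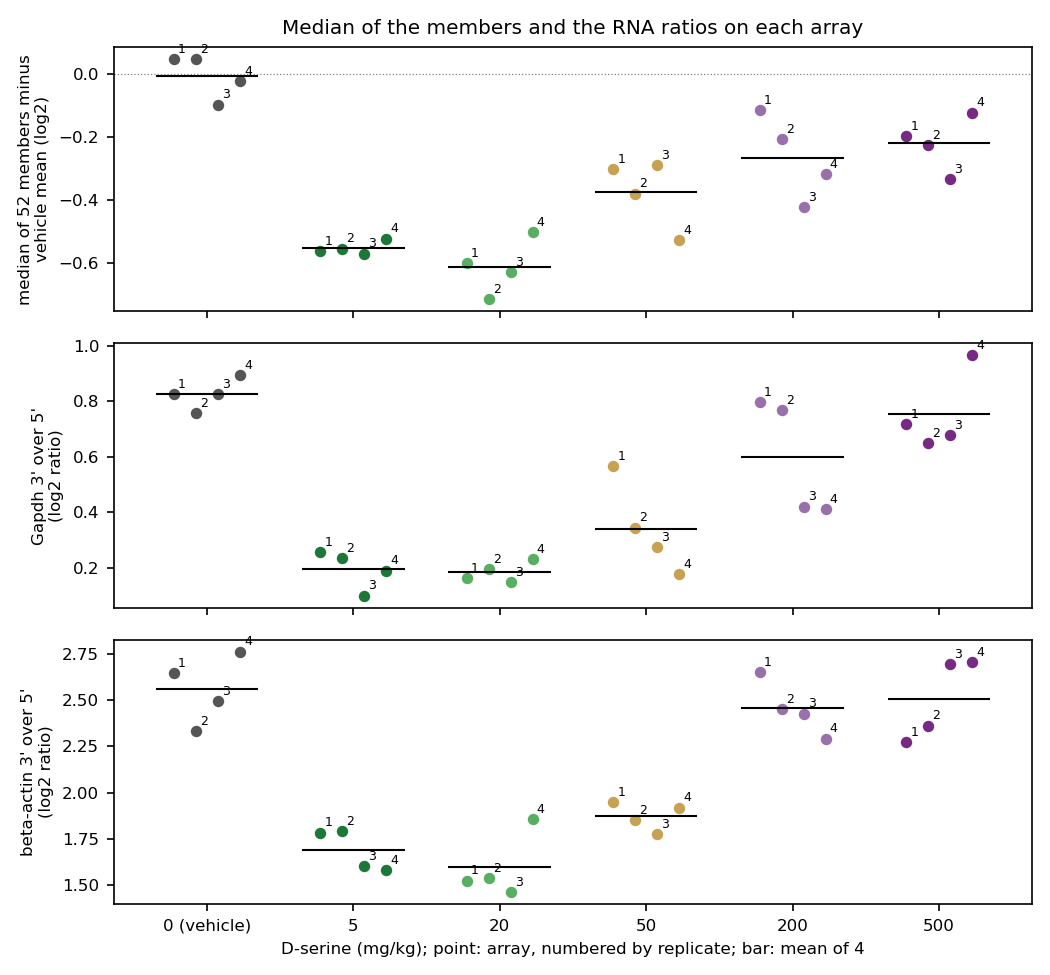
Median over the 52 genes of the difference from the vehicle mean (top, log2), log2 ratio of 3' to 5' Gapdh control probe sets (middle) and of beta-actin (bottom) on each array. Points are arrays numbered by replicate, bars are means of 4, and the x axis is the dose in mg/kg; all 3 measures are lowest at 5 and 20 mg/kg, and the Gapdh mean climbs from 0.18 at 20 to 0.75 at 500 mg/kg.

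Other probe sets of the same genes gave a smaller difference. Another probe set existed for 30 of the 52 genes, 49 in all, of which 30 (for 22 genes) passed the filter. The genes were chosen on the brightest probe set, so these others played no part in the choice but share its arrays. Of the 30, 25 lay below vehicle in the mean of 5 and 20 mg/kg and 5 above, with a median of -0.16. Over all 14217 genes, each on its brightest probe set, 51.7% lay below vehicle at 5 and 51.4% at 20 mg/kg. Only the second probe sets of Lpar1 (-0.57), Eml1 (-0.50) and Map4k4 (-0.54) came to -0.5 or less, and only for Eml1 and 1 of Thoc2 (-0.42) did all 8 arrays lie below all 4 vehicle arrays. On the brightest probe sets that separation held for 297 of all 14217 genes. Pnma8b read -0.23 on its second probe set, against -0.83 on the first. Fbxl20 read -0.30, -0.00 and 0.05 on its others, Eprs1 0.06 and 0.73, and Thoc2 0.25 on the other one past the filter. The dim second probe sets of Pik3c2b, Plekhh1 and Cit read -0.07, 0.02 and -0.04. Where on the transcript each probe set lies is not used here.

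**Figure D5:**
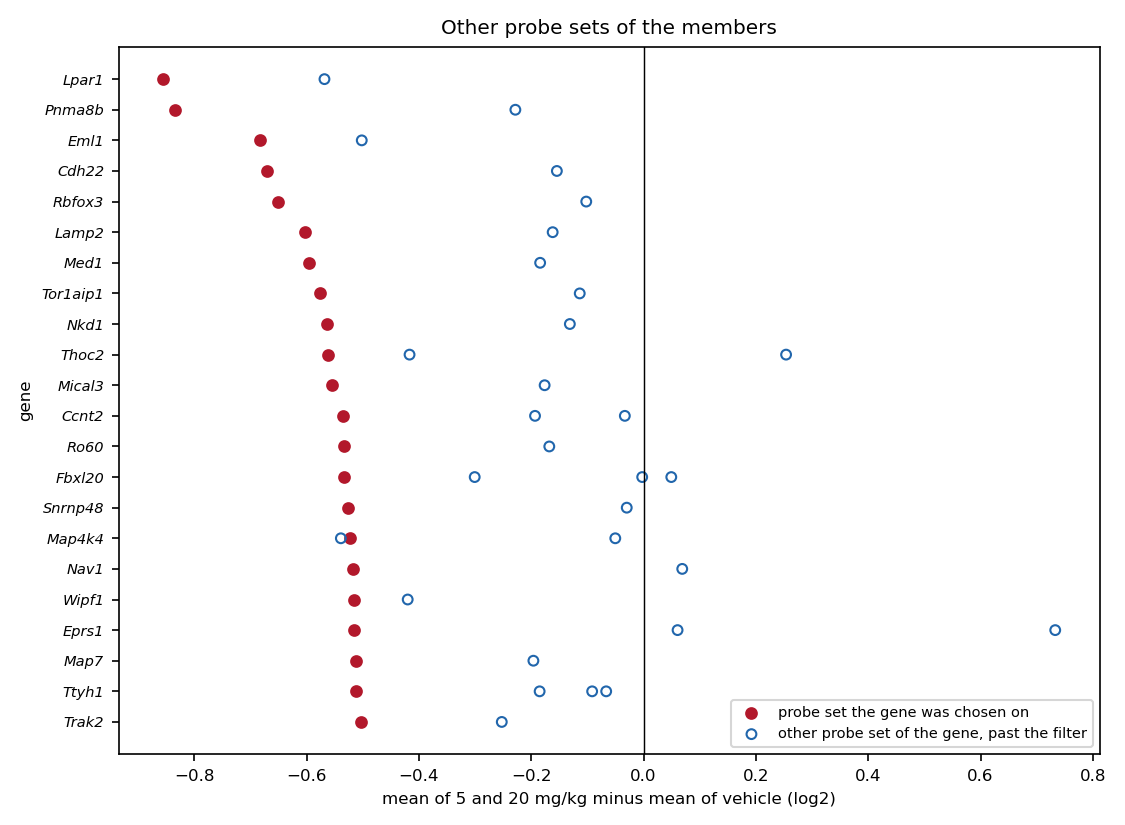
Mean of 5 and 20 mg/kg minus mean of vehicle (x axis, log2) for the probe set each gene was chosen on (filled) and for its other probe sets past the filter (open), for the 22 genes that have one. Of the 30 open points 25 lie left of 0, most of them nearer to 0 than the filled point of the gene.

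The genes were long and brightly measured. Their median genomic span in the RefSeq table was 62.7 kb, against 22.3 kb over all genes and 41.4 kb over the 90 genes that met the mirror rule, with all 8 arrays above vehicle by 0.5 or more. Of the 52, 38 were longer than the median of all genes. Their median of mean log2 levels was 8.02, against 7.08 over all genes, and among genes past the filter the spans were 69.3 and 25.2 kb. They were spread over many chromosomes, with Lamp2 and Thoc2 on X.

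Most related genes lay nearer to vehicle. Of 31 measured phosphoinositide kinases and phosphatases, with Pik3c2b, the median difference from vehicle was -0.06 at 5 and -0.06 at 20 mg/kg, with 23 and 19 of the 31 below vehicle. Of 15 genes of lysophosphatidic acid signalling, with Enpp2 and Lpar1, 10 lay below vehicle at 5 and 7 at 20 mg/kg (medians -0.10 and 0.05). Of 8 TMED cargo receptors, with Tmed5, 3 lay below vehicle at 5 and 4 at 20 mg/kg (medians 0.01 and -0.02). All 5 SLC22 transporters, with Slc22a15, lay below vehicle at both (medians -0.10 and -0.17). Of 3 genes of the Ma antigen family and Arc, 2 did, Pnma8b and Arc itself (medians -0.23 and -0.56). Those of the 52 genes that are counted in these lists were chosen for lying below vehicle. Endocytic adaptors, with none of the 52, had 9 and 10 of 25 below vehicle (medians 0.12 and 0.09). NMDA receptor and D-serine handling genes, also with none of the 52, had 6 of 8 below at each dose (medians -0.07 and -0.20). In the limma fit of the 12 arrays, 0 genes of these 7 lists passed in either direction in any of the 3 comparisons, which is also the count over all probe sets.

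Markers of other cell types and regions differed in how far they stood from vehicle at 5 and 20 mg/kg. Medians were -0.20 and -0.15 for 5 oligodendrocyte precursor markers, -0.51 and -0.52 for 7 thalamic markers, -0.13 and -0.40 for 8 striatal markers and -0.45 and -0.39 for the 5 choroid plexus markers. They were -0.26 and -0.13 for 8 endothelial, -0.18 and -0.05 for 7 meningeal and -0.37 and -0.29 for 3 blood markers. Astrocyte (-0.06 and 0.03, 8 genes), microglia (0.00 and 0.09, 9 genes), pericyte (0.14 and 0.05, 7 genes), cortical neuron (0.10 and -0.04, 7 genes), interneuron (0.24 and 0.13, 8 genes) and cerebellar markers (-0.01 and 0.07, 7 genes) lay near or above vehicle. The summed thalamic signal was 1035.7 to 1332.7 at 5 and 992.7 to 1512.5 at 20 mg/kg, against 1356.6, 4639.3, 1263.4 and 1335.9 with vehicle, where only replicate 2 was high. Marker medians also differed between the doses not used in the choice. At 50 against 200 and then 500 mg/kg they were -0.57 and -0.65 for striatal and 0.26 and 0.38 for thalamic markers. They were -0.07 and 0.45 for cortical neuron, 0.26 and -0.43 for cerebellar, 0.09 and 0.33 for choroid plexus and 0.86 and 0.76 for blood markers. The other marker lists ran from -0.17 to 0.09. None of these lists holds any of the 52 genes, 0 of their genes passed a comparison of the 12 arrays, and their part in the 52 genes was not tested.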

How the data were processed

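The authors deposited 1 table of linear intensity, with a value for every probe set on each of 24 arrays. The submitters' processing notes name GCOS, the Affymetrix analysis program. How it was set and scaled is not given in the sources used here, and scan and labelling batches were not used here. The labels name a separate animal for each array, so replicates are biological, and replicate numbers only name arrays. No 2 arrays were the same (0 identical pairs).

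Because the deposited array medians spanned 0.73 in log2(intensity + 16), values were quantile normalized over all 24 arrays; a difference on this scale understates the change of dim probe sets. Of 31099 probe sets, 57 controls and the 40% with the lowest mean were left out of tests, leaving 18625. Gene symbols came from the platform annotation, for 20832 probe sets with 1 symbol (436 had several), brought up to date through RefSeq, GRCr8. Doses of 50, 200 and 500 mg/kg were compared in limma 3.58.1 (R 4.3.3) with an intensity trend and Benjamini-Hochberg adjustment, and RNA ratios by exact two-sided permutation tests. The number of arrays limits the precision.

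The 52 genes, the gene lists and the role groups were chosen with earlier results of these data known. Values are given in full for Pik3c2b, Cit, Pnma8b and Lpar1, for the 12 genes furthest below vehicle and for genes past a test; values of Rbfox3, Lamp2, Fbxl20, Osbp2, Rap1gds1, P3h3 and Mtcl2 were added after their values were seen, because 0 genes passed the test. The fit was tested on simulated data of 18625 probe sets at 50 against 200 mg/kg, where limma recovered 77% of 100 changes of 1 and 26% of 100 changes of 0.5 with 3 false calls. Alternatives were other filters, scalings, pseudocounts and moderation, array weights, 1 probe set per gene, all 24 arrays, the Gapdh ratio as a covariate and leaving out each array; the values as deposited and the covariate with all 24 arrays or without 500 mg/kg replicate 4 were added after seeing the data. The result of 1 gene list is not reported here.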

Additional observations from a re-analysis of the deposited data

Results flagged for a closer look

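In 26 of 336 groups of 4 arrays (7.74%), 1 array stood apart from the other 3 by Dixon's test, which flags about 1 group in 20 by chance. On 500 mg/kg replicate 4 these were Mtcl2 at 9.73, Msantd2 at 7.29, Nav1 at 6.93, Eprs1 at 9.59 and Ttyh1 at 11.23 on the log2 scale; this array also had the low correlation and the cerebellar signal given above. On 200 mg/kg replicate 3, the array with low oligodendrocyte markers, they were Plekhh1 at 7.90, Wipf1 at 7.98 and Gltp at 8.05. On 20 mg/kg replicate 1 they were Enpp2 at 8.19 and Lpar1 at 8.58.

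The other values that stood apart were Slc22a15 at 7.34 and Map4k4 at 9.52 on vehicle replicate 2, Med1 at 8.53 on vehicle replicate 1, Tmed5 at 5.89 and Cpsf7 at 8.43 on 5 mg/kg replicate 1, Nav1 at 7.86 on 5 mg/kg replicate 2, and Tbc1d12 at 6.92 and Mdga2 at 7.73 on 20 mg/kg replicate 4. At 50 mg/kg they were Gatad2b at 6.84 and Metrn at 7.49 on replicate 4, and a median deposited intensity of 79.0 on replicate 3, where the other 3 arrays had 67.8 to 68.6. At 200 mg/kg Nav1 read 8.45 on replicate 1. Among dim genes they were Ccdc113 at 5.28 on 50 mg/kg replicate 2, Smc1b at 5.48 on 200 mg/kg replicate 4 and Pdia2 at 5.38 and 5.31 on replicate 2 of 200 and of 500 mg/kg. What lies behind single arrays was not tested.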

How the results depend on the processing

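No paired analysis was possible because each array is a separate animal and replicate numbers only name arrays. The rule kept 32 genes with each array centred on its median (22 of the 52), 16 with a pseudocount of 64 and 1 with the values as deposited. It kept 51 to 104 with 1 array left out, the most without vehicle replicate 3 (48 of the 52). In the deposited values the median of all genes moved by 0.16 at 5 and 0.33 at 20 mg/kg. With quantile normalization, centring or the values as deposited, all 52 mean log2 values stayed below vehicle at 5 and 20 mg/kg, on the arrays that chose the genes. The median deposited intensity at 20 mg/kg was above vehicle for Ttyh1 (2898.8 against 2597.15), Map7 (752.1 against 656.75), Trak2, Ccnt2, Efcab14, Ro60, Zdhhc20 and Nav1, and below it for the other genes. The count of genes past the test stayed 0 in every setting except array weights, where Ttyh1 passed at 50 against 500 mg/kg (count 1, -0.46, limma adjusted p = 0.0132); in that fit 50 probe sets of 18625 passed lower and 84 higher, and at 50 against 200 mg/kg 10 passed lower and 25 higher. At 50 against 200 mg/kg, 15 genes were lower at an unadjusted p under 0.05 with array weights, where 1290 of 18625 probe sets were. With the Gapdh ratio as a covariate (12 arrays, 24 arrays, and without 500 mg/kg replicate 4), 1, 3 and 2 genes were lower. Among all probe sets 566, 631 and 819 were. In those fits 2, 3 and 2 genes were higher, with 1111, 1253 and 1563 probe sets under that p in both directions together. Leaving out 1 array, 2 to 10 genes were lower, where 294 to 920 probe sets were. At 50 against 500 mg/kg 1, 1 and 2 genes were lower with the covariate, against 3, 3 and 4 higher. Of all probe sets 409, 419 and 734 were lower there, of 811, 847 and 1358 in both directions. Leaving out 1 array, 9 to 15 genes were lower, where 739 to 1263 probe sets were. At 500 against 200 mg/kg 2 genes were lower and 1 higher with array weights, where 518 of 1027 such probe sets were lower. With the covariate without 500 mg/kg replicate 4, 1 gene was lower and 1 higher, where 298 of 576 such probe sets were lower. Leaving out 1 array, 0 to 2 genes were lower and 0 to 2 higher, with 407 to 1041 such probe sets in both directions.

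Leaving out 1 array, the median over the 44 genes ran from -0.2185 to -0.0516 at 50 against 200 and from -0.2541 to -0.1184 at 50 against 500 mg/kg. The median turned with the covariate, in the same order of 3 fits, to 0.0318, 0.0098 and 0.0101 at 50 against 200, to 0.0604, 0.0035 and 0.0556 at 50 against 500 and to -0.043, -0.0399 and -0.0353 at 500 against 200 mg/kg, where it was also -0.0178 with array weights and -0.0358 to 0.0969 leaving out 1 array. Pnma8b turned at 50 against 200 mg/kg to -0.031 with centring and -0.075 with array weights, and at 50 against 500 mg/kg to 0.0823, 0.0844 and 0.1009 with the covariate. Lpar1 turned at 50 against 200 mg/kg to -0.055 with centring, -0.0009 with the 12 arrays normalized alone, -0.001 with a pseudocount of 64 and -0.0745 with array weights, and Mical3 to 0.0306 and 0.0597 with the covariate in 12 and 24 arrays. Leaving out 1 array, at 50 against 200 and then 500 mg/kg, gave -0.0059 to 0.3278 and -0.0665 to 0.2375 for Pik3c2b, -0.1068 to 0.1273 and -0.1681 to 0.0936 for Pnma8b and -0.2401 to 0.115 and -0.167 to 0.1498 for Lpar1. The cause was not tested; the Gapdh ratio and the dose cannot be told apart.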
